A study of Caenorhabditis elegans with 10 samples.

Results

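The 4 larval arrays of a Caenorhabditis elegans study of nep-1 fall into 2 sets, replicate 2 and replicate 1, and each set holds 1 mutant and 1 wild-type array. They are 4 of the 10 arrays in the series, and they were chosen by stage and by the replicate number in their titles. Each array measured RNA from whole worms with 22625 probe sets, of which 77 are controls and 22548 were compared. Genotype is balanced over the replicates, so replicate 2 minus replicate 1 can be read once in each genotype.

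The nematode cuticle is a collagen-rich matrix laid down by the skin cells, and larvae make a new one and shed the old one at the end of every larval stage. Collagen genes and many other genes of the moult are transcribed in pulses that recur with each larval stage. Hedgehog-related secreted proteins, patched-related membrane proteins, astacin metalloproteases and the glutamine-rich abu and pqn proteins of the pharyngeal lining take part in building or shedding these matrices.

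Larval mutant 2 and larval mutant 1 carried a nep-1 allele isolated by EMS mutagenesis, and larval wild-type 2 and larval wild-type 1 were of the Bristol variety. All were L3 larvae, kept on nematode growth medium with OP50 bacteria at 20 °C. Adults of the same genotypes filled the other 6 arrays, and their descriptions pair them as mutant 1 with wild-type 3 (bare names), mutant 2 with wild-type 1 (letter A) and mutant 3 with wild-type 2 (letter B). The titles call the replicates biological, but the labels name no culture, hour within the stage, extraction or scan batch. A difference between the worms of the replicates and a difference in the handling of their arrays therefore cannot be told apart. The labels give a strain code for the mutant on only some arrays, with a different code on larval mutant 1 and on the adult letter pairs. In bulk RNA of whole worms, fewer cells of a kind and less RNA per cell cannot be told apart.

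nep-1 encodes one of the worm's neprilysins, zinc-dependent peptidases of the cell surface, and checks the genotype labels. Its log2 level was 4.85 on mutant 2 and 9.17 on wild-type 2, and 5.20 on mutant 1 and 8.19 on wild-type 1. Both mutant arrays lay below both wild-type arrays, and nep-1 was called absent on each mutant array and present on each wild-type array. Mutant minus wild-type was -3.65 ± 0.41 (log2, SE), with an adjusted p of 0.653 in limma. No probe set passed that test of genotype in larvae, where 609 had an unadjusted p under 0.05. The stage label could not be checked, because no probe set is paired here with a yolk, sperm, oocyte, intestine, neuron or pharyngeal muscle gene of the marker lists.

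Some whole-array values moved with the replicate. Present calls were made for 12196 probe sets (54.1%) on mutant 2 and 12983 (57.6%) on wild-type 2, against 11184 (49.6%) on mutant 1 and 11766 (52.2%) on wild-type 1. The bacterial control transcript bioB, which the standard Affymetrix protocol adds at hybridisation, read 7.72 and 7.81 (log2) on mutant 2 and wild-type 2, against 5.70 and 5.82 on mutant 1 and wild-type 1. A brighter control of the same kind, cre, read 12.43 and 12.55 on the replicate 2 arrays, against 11.10 and 11.30 on the replicate 1 arrays. The mean 3' minus 5' signal of 8 control transcripts was 1.16 and 0.93 (log2) on mutant 2 and wild-type 2, against 0.79 and 1.001 on mutant 1 and wild-type 1, so those ranges overlapped. The part of these array differences in the gene differences that follow was not tested.

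Replicate 2 differed from replicate 1 in the same direction in both genotypes for most probe sets. The difference was positive in both genotypes for 8185 probe sets (36.3%), negative in both for 7624 (33.8%) and of opposite sign for 6719 (29.8%). Across probe sets, which are not independent, the differences in the mutant and in the wild type had a Pearson r of 0.561 (n = 22548). Both replicate 2 arrays lay above both replicate 1 arrays for 6884 probe sets (30.5%), and below both for 6577 (29.2%). A difference of at least 2-fold in both genotypes was found for 348 probe sets higher in replicate 2 (1.54%) and 136 lower (0.603%), while 6 moved at least 2-fold in opposite directions. At 4-fold in both genotypes the counts were 18 higher and 6 lower. In single genotypes, the 2-fold counts were 1352 higher and 599 lower in the mutant, and 841 higher and 614 lower in the wild type.

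**Figure D1:**
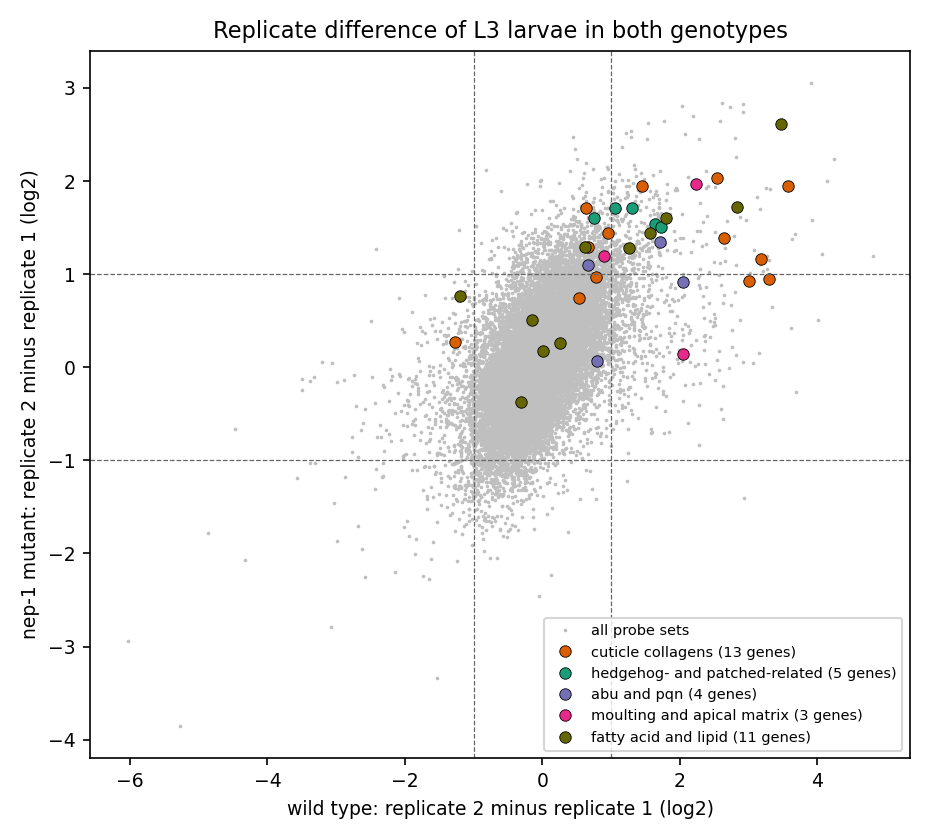
Replicate 2 minus replicate 1 (log2) in wild-type L3 larvae on the x axis and in nep-1 mutant L3 larvae on the y axis. Each grey point is 1 of 22548 probe sets, coloured points are named genes of 5 lists, and the dashed lines mark a 2-fold difference. Of 13 collagen genes, 12 lie at the upper right and 5 of them beyond both 2-fold lines.

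The test of the replicate difference passed no probe set (0%) in limma, with a threshold of 0.05 on p-values adjusted by Benjamini-Hochberg over all probe sets. The smallest adjusted p was 0.0849, and 2532 higher and 1999 lower probe sets had an unadjusted p under 0.05. In that model the 3 adult pairs lend most of the estimate of the spread between arrays. Without the adult pair with bare names, 806 probe sets were called higher in replicate 2 (3.57%) and 358 lower (1.59%). The median residual SD was 0.188 without that pair and 0.228 with it. With the larval arrays alone, 0 passed and 5148 had an unadjusted p under 0.05. Exact permutation over 2 arrays against 2 could reach no two-sided p below 0.333, so none is given for single genes. Whether the replicate difference itself differed between mutant and wild type was tested as an interaction: 0 probe sets passed in limma, and 691 had an unadjusted p under 0.05. The directions of the genes named here are therefore descriptions. Adjusted p-values given without the bare-name pair come from that alternative fit alone. The main fit and the larval arrays alone passed no probe set.

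The balance between higher and lower probe sets changed with the scaling. Of the probe sets past 2-fold in both genotypes, 71.9% were higher in replicate 2 on the deposited log2 values, 58.0% after quantile normalisation and 24.1% on the scaled signals of the authors' comparison tables. The median over all probe sets was 0.02 (log2) on the deposited values and -0.20 on the scaled signals. Of the 348 higher probe sets, 115 (33.0%) were also among the 435 past 2-fold on the scaled signals, where they made up 26.4%. Of the 136 lower ones, 101 (74.3%) were among the 1371 on the scaled signals, where they made up 7.37%. Named genes whose direction differs on the scaled signals are given with both values.

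The difference also followed the level of the probe set. With the probe sets ordered by mean larval level and divided into 10 groups of equal size, the median difference in group 4 was -0.13 in the mutant and -0.23 in the wild type. In group 8 it was 0.28 in the mutant and 0.16 in the wild type. The 11274 brightest probe sets held 287 of the 348 higher and 85 of the 136 lower ones, and the 11274 dimmest held 61 and 51. Levels were more widely spread on the replicate 2 arrays, with SDs over probe sets of 2.10 on mutant 2 and 2.14 on wild-type 2, against 1.94 on mutant 1 and 2.04 on wild-type 1.

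**Figure D2:**
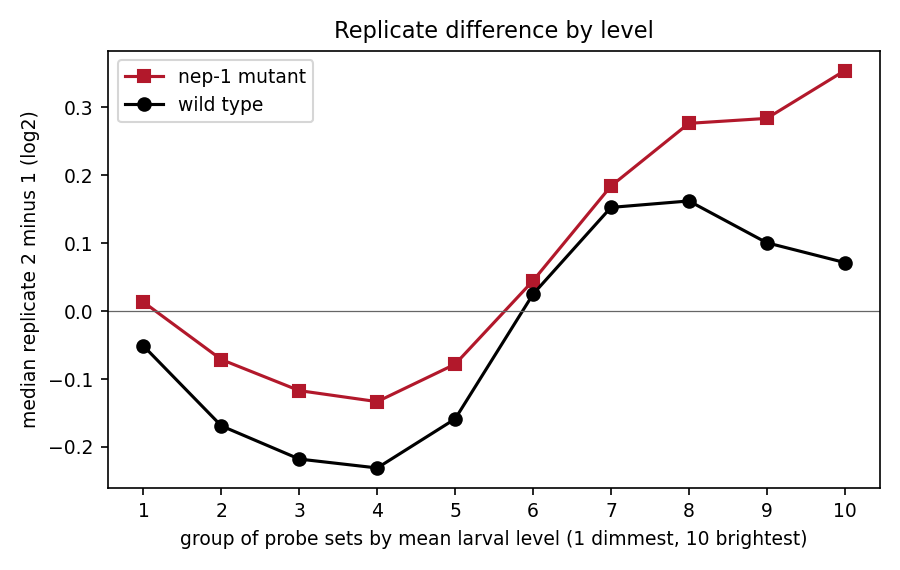
Median replicate 2 minus replicate 1 (log2, y axis) in each of 10 equal groups of probe sets ordered by mean larval level (x axis, 1 the dimmest), for the nep-1 mutant (squares) and the wild type (circles). Medians lie below 0 from group 2 to group 5 in both genotypes, with a lowest value of -0.23, and above 0 from group 6 on, with a highest value of 0.35.

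Gene names are available for few of these probe sets. A probe set could be named only where the authors listed it as changed and gave its gene number, which yields 145 genes. Of the 348 higher probe sets 40 represent a named gene, and of the 136 lower ones 3 do. The authors' larval list of decreased transcripts holds 142 probe sets with a decrease call in at least 3 of the 4 mutant against wild-type comparisons. In the authors' deposited tables those calls were made for 142 in mutant 2 against wild-type 2, 135 in mutant 1 against wild-type 1, 134 in mutant 1 against wild-type 2 and 27 in mutant 2 against wild-type 1. A probe set high in replicate 2 enters such a list more easily through the comparison of mutant 1 with wild-type 2 than through that of mutant 2 with wild-type 1. The choice of named genes is thus not independent of the replicate difference, and counts over them support no direction. Of the 142, 127 (89.4%) were higher in replicate 2 in both genotypes, with a median of 1.18 against 0.02 over all probe sets. Of the 44 probe sets on the authors' larval list of increased transcripts, 14 were higher and 17 lower in both genotypes, with a median of -0.06.

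Cuticle collagens, the structural proteins of the nematode exoskeleton, were higher in replicate 2 in both genotypes for 12 of 13 named genes. Their median difference was 1.70 (log2), against 0.98 over all 145 named genes, and 5 passed 2-fold in both genotypes. Both replicate 2 arrays lay above both replicate 1 arrays for 11 of the 13, against 30.5% of all probe sets. Without the bare-name adult pair 7 passed as higher and 0 as lower, against 3.57% and 1.59% of all probe sets. On the scaled signals the median was 1.69, and again 12 of 13 were higher in both genotypes. All but col-142 came from the authors' list of decreased transcripts. Of the 108 named genes of that list, 98 were higher in both genotypes, with a median of 1.16, and 56 passed as higher without the bare-name adult pair. For 72 of the 108, both replicate 2 arrays lay above both replicate 1 arrays. The comparison with all probe sets therefore does not set collagens apart from the other genes of that list.

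The largest collagen difference was that of col-48. Its log2 level was 9.32 on mutant 2 and 11.83 on wild-type 2, against 7.37 on mutant 1 and 8.25 on wild-type 1. The replicate sets did not overlap, and the mean difference was 2.76 ± 0.99 (log2, SE), or 6.79-fold, with an adjusted p of 0.197 in limma and 0.020 without the bare-name adult pair. col-180 read 10.72 and 12.25 on mutant 2 and wild-type 2, against 8.69 and 9.71 on mutant 1 and wild-type 1. Its difference was about equal in the genotypes on the deposited values, at 2.03 in the mutant and 2.54 in the wild type. On the scaled signals it was 1.29 in the mutant and 2.85 in the wild type. Among the most abundant transcripts of the group, rol-6, whose mutants roll, read 12.39 and 12.80 on the replicate 2 arrays, against 10.95 and 11.84 on the replicate 1 arrays.

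The collagens did not all move by a like amount in the genotypes. col-77 was higher by 1.16 in the mutant and by 3.19 in the wild type, col-54 by 0.95 and 3.31, and col-109 by 0.93 and 3.01. For these genes wild-type 2 stood far above the other larval arrays: col-54 read 8.05 on mutant 2 and 10.96 on wild-type 2, against 7.10 on mutant 1 and 7.65 on wild-type 1. sqt-2, another collagen of body shape, showed the opposite, with 1.71 in the mutant and 0.64 in the wild type. col-111 and rol-6 also moved more in the mutant on the deposited values. On the scaled signals col-111 moved less in the mutant, by 1.38 against 1.94 in the wild type. rol-6 moved there by 1.14 in the mutant and 1.01 in the wild type. No collagen passed the test of the genotype interaction. dpy-5 (short, fat body in mutants) and col-41 had the smallest positive differences, at 0.88 ± 0.96 and 0.64 ± 0.46 (log2, SE). The exception, col-142, read 9.29 on mutant 2 and 7.24 on wild-type 2, against 9.01 on mutant 1 and 8.51 on wild-type 1. Its difference was 0.27 in the mutant and -1.27 in the wild type, so the replicate sets overlapped, and on the scaled signals it was -0.44 in the mutant and -2.29 in the wild type.

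All 5 named hedgehog-related and patched-related genes were higher in replicate 2 in both genotypes, 4 of them by at least 2-fold in each. Their median was 1.51 (log2), with a range from 1.18 to 1.62, and both replicate 2 arrays lay above both replicate 1 arrays for each of the 5, against 30.5% of all probe sets. Without the bare-name adult pair all 5 passed as higher, against 3.57% of all probe sets, with adjusted p-values from 0.020 to 0.041 in limma. All 5 came from the authors' list of decreased transcripts. Of its 108 named genes, 72 had both replicate 2 arrays above both replicate 1 arrays, and 56 passed as higher in that fit. Of the secreted proteins, grd-5 read 10.04 and 11.18 on mutant 2 and wild-type 2, against 8.54 and 9.44 on mutant 1 and wild-type 1. grl-5 differed by 1.38 ± 0.58 and grl-7 by 1.18 ± 0.53 (log2, SE). Of the patched-related membrane proteins, ptr-6 read 6.03 and 7.47 on mutant 2 and wild-type 2, against 4.49 and 5.83 on mutant 1 and wild-type 1. Its difference of 1.59 ± 0.29 was close in both genotypes on the deposited values, at 1.54 in the mutant and 1.64 in the wild type. On the scaled signals it was 0.48 in the mutant and 1.40 in the wild type. ptr-6 was called absent on mutant 1. ptr-18 differed by 1.51 ± 0.47.

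The abu and pqn genes encode glutamine- and asparagine-rich proteins, many of which line the pharynx. All 4 were higher in replicate 2 in both genotypes, with a median of 1.18 (log2). pqn-13 read 8.78 and 10.16 on mutant 2 and wild-type 2, against 7.43 and 8.45 on mutant 1 and wild-type 1, a difference of 1.53 ± 0.20 (log2, SE) and 2.89-fold. abu-14 differed by 1.48 ± 0.47 and abu-13 by 0.88 ± 0.53. abu-8 was the weakest, with 0.07 in the mutant and 0.79 in the wild type, and its replicate sets overlapped. The scaled signals put abu-8 at -0.28 in the mutant and 0.50 in the wild type, so that 3 of the 4 genes were higher in both genotypes there. Without the bare-name adult pair pqn-13 and abu-14 passed in limma, with adjusted p-values of 0.020 and 0.040. abu-13 and abu-8 did not, at 0.065 and 0.445. In that fit 3.57% of all probe sets passed as higher. All 4 genes came from the authors' list of decreased transcripts. Of its 108 named genes, 98 were higher in both genotypes and 56 passed as higher in that fit.

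Genes of the moulting list with a name here were nas-6, mlt-8 and lpr-7, and all 3 were higher in replicate 2 in both genotypes. Over all probe sets that share was 36.3%. All 3 came from the authors' list of decreased transcripts, where 98 of the 108 named genes were higher in both genotypes. On the deposited values nas-6, an astacin metalloprotease, had one of the steadiest differences of all named genes. It read 7.45 and 8.51 (log2) on mutant 2 and wild-type 2, against 5.48 and 6.26 on mutant 1 and wild-type 1, and it was called absent on mutant 1 alone. The difference was 1.96 in the mutant and 2.24 in the wild type, with a mean of 2.10 ± 0.18 (SE), or 4.30-fold, and an adjusted p of 0.0849 in limma and 0.013 without the bare-name adult pair. The scaled signals put nas-6 less evenly, at 0.84 in the mutant and 2.15 in the wild type. mlt-8, named for its moulting defect, was abundant on every larval array and differed by 1.05 ± 0.66. lpr-7, a lipocalin-related secreted protein, differed by 2.05 in the wild type and by 0.14 in the mutant, so its replicate sets overlapped. On the scaled signals it lay at -0.37 in the mutant and 1.66 in the wild type, and 2 of the 3 genes were higher in both genotypes. Without the bare-name adult pair mlt-8 and lpr-7 did not pass, with adjusted p-values of 0.150 and 0.133 in limma.

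**Figure D3:**
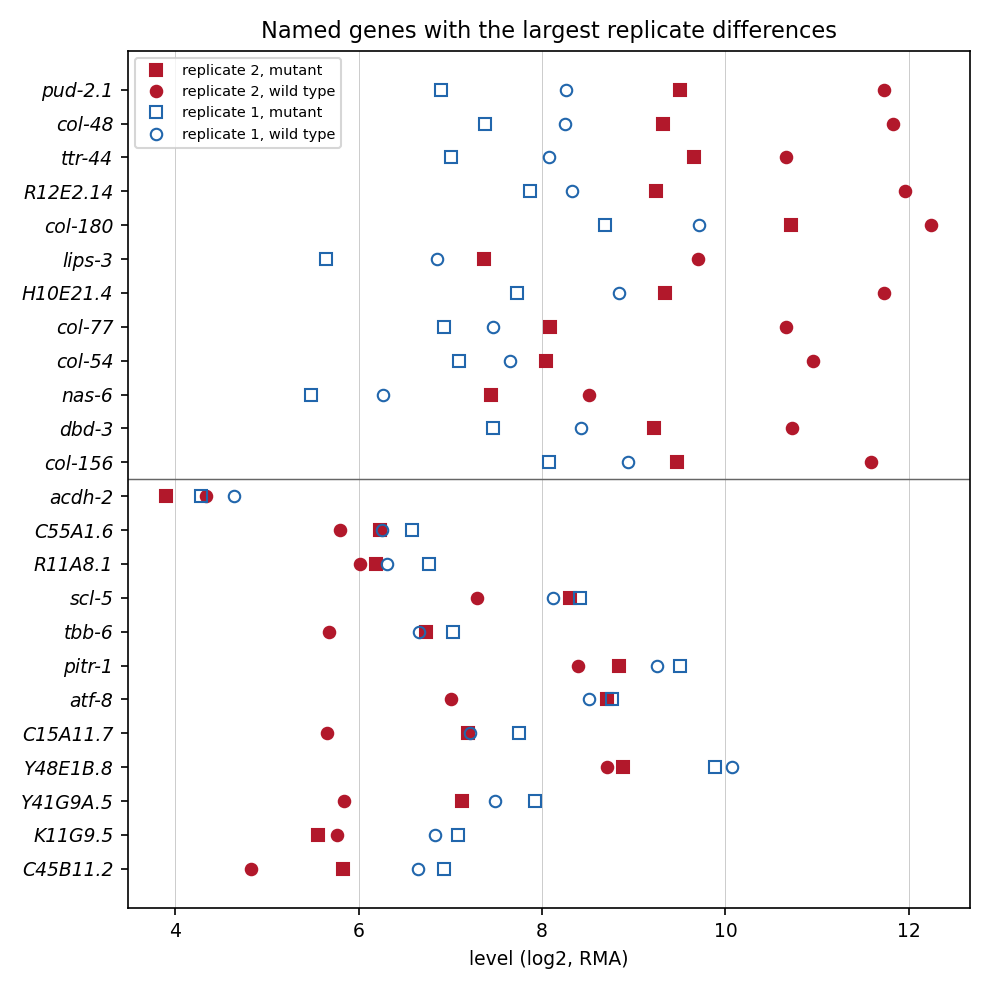
Log2 level (x axis) of the 12 named genes with the largest positive and the 12 with the largest negative replicate 2 minus replicate 1 difference (rows, split by the line) on each of the 4 larval arrays, among genes with the same sign in both genotypes and at least 2 present calls. Filled red symbols are replicate 2, open blue symbols replicate 1, squares mutant and circles wild type. In the upper block wild-type 2 is the highest array in every row, for example 11.73 for pud-2.1, and in the lower block both replicate 2 arrays lie below both replicate 1 arrays in 8 of the 12 rows.

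Genes outside the cuticle lists stood among the largest differences too. pud-2.1, of a small family named for its rise in insulin-receptor (daf-2) mutants, had the largest of all named genes. It read 9.51 and 11.73 on mutant 2 and wild-type 2, against 6.89 and 8.26 on mutant 1 and wild-type 1. The difference was 3.04 ± 0.33 (log2, SE), or 8.25-fold, with an adjusted p of 0.0849 in limma and 0.013 without the bare-name adult pair. The probes of pud-2.1 may also read near-identical copies of the gene. ttr-44, a transthyretin-like gene, read 9.66 and 10.66 on mutant 2 and wild-type 2, against 7.01 and 8.07 on mutant 1 and wild-type 1. Its difference of 2.62 ± 0.33 was almost equal in the genotypes, at 2.65 in the mutant and 2.58 in the wild type.

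R12E2.14, H10E21.4 and dbd-3 followed, with 2.50 ± 0.60, 2.25 ± 0.64 and 2.03 ± 0.60 (log2, SE). R12E2.14 moved much more in the wild type, by 3.63, than in the mutant, by 1.38. F44E5.5, an hsp70-family chaperone whose probes may also read its near-identical neighbour F44E5.4, differed by 1.99 ± 0.32. It read 9.57 and 10.20 on mutant 2 and wild-type 2, against 7.11 and 8.68 on mutant 1 and wild-type 1.

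Of 11 named genes in the fatty acid and lipid list, 8 were higher in replicate 2 in both genotypes, 1 was lower in both and 5 passed 2-fold upward, with a median of 0.96 (log2). One of these 5 is pud-2.1, which the list holds by its name and not by a known lipid role. Of all 145 named genes, 109 were higher in both genotypes and 40 passed 2-fold upward, with a median of 0.98. Over all probe sets the shares were 36.3% and 1.54%. The median of the lipid list was 0.70 after quantile normalisation and 0.37 on the scaled signals, against 0.73 and 0.70 over all named genes. The lipases lips-3 and lips-9 differed by 2.28 ± 0.44 and 1.70 ± 0.35 (log2, SE). acs-20 and acs-22, fatty acid transport proteins of which acs-20 serves the cuticle barrier, differed by 1.504 ± 0.39 and 0.96 ± 0.32. The elongase elo-3 differed by 1.28 in the mutant and 1.26 in the wild type. The other members of the list lay between -0.34 for acdh-2, an acyl-CoA dehydrogenase, and 0.26.

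Of 4 glutathione S-transferases, conjugating enzymes of detoxification, 3 were higher in both genotypes, with a median of 0.33 (log2) that was 0.11 after quantile normalisation and 0.04 on the scaled signals. gst-10 had the largest, at 0.62 ± 0.61 (SE). Of 3 UDP-glucuronosyltransferases, ugt-6 differed by 1.59 ± 0.40 and ugt-44 by 0.98 ± 0.27, while ugt-63 differed by 0.02 ± 0.21, with 5.85 and 6.94 on mutant 2 and wild-type 2, against 5.81 and 6.94 on mutant 1 and wild-type 1. ugt-63 lay at -0.31 on the scaled signals. The single named members of other lists, lys-2 (a lysozyme), cyp-35C1 (a cytochrome P450), nlp-8 (a neuropeptide), ketn-1 (kettin, of muscle) and vha-18 (of the vacuolar ATPase), lay between -0.13 for nlp-8 and 0.64 for vha-18. vha-18 lay at -0.32 on the scaled signals.

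Few named genes were lower in replicate 2. Of the 145, 15 were lower in both genotypes, 3 of them by at least 2-fold in each, and 3 passed as lower without the bare-name adult pair, against 1.59% of all probe sets. C45B11.2, which the authors' list titles as an epoxide hydrolase, read 5.83 and 4.82 on mutant 2 and wild-type 2, against 6.93 and 6.64 on mutant 1 and wild-type 1. Its difference was -1.46 ± 0.36 (log2, SE). K11G9.5 and Y48E1B.8, the others past 2-fold, differed by -1.30 ± 0.36 and -1.18 ± 0.51. Y41G9A.5 and C15A11.7 differed by -1.22 ± 0.24 and -1.06 ± 0.34, and mutant 2 lay close to wild-type 1 for both genes, at 7.12 and 7.49 for Y41G9A.5 and at 7.19 and 7.21 for C15A11.7.

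The remaining lower genes differed by less. atf-8, a bZIP transcription factor, differed by -0.05 in the mutant and -1.50 in the wild type, so that wild-type 2, at 7.01, stood apart from the other larval arrays. pitr-1, a phosphate permease, differed by -0.67 in the mutant and -0.87 in the wild type. tbb-6 (a beta-tubulin), scl-5, R11A8.1, C55A1.6 and acdh-2 lay between -0.64 and -0.34, with SEs from 0.19 to 0.54. For acdh-2 the scaled signals gave 0.20 in the mutant and -1.32 in the wild type.

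The most extreme probe sets of all have no gene name here. Probe set 173149_at read 5.55 and 5.40 (log2) on mutant 2 and wild-type 2, against 9.40 and 10.68 on mutant 1 and wild-type 1, a difference of -4.56 ± 0.40 (SE). Probe set 194189_x_at read 5.73 and 5.22 on the replicate 2 arrays, against 8.67 and 11.25 on the replicate 1 arrays. On the 6 adult arrays these probe sets lay between 3.98 and 6.39, near the replicate 2 larvae and below the replicate 1 larvae. Upward, probe set 180616_at read 7.86 and 9.07 on mutant 2 and wild-type 2, against 4.81 and 5.16 on mutant 1 and wild-type 1. It read 5.73 and 7.92 on adult mutant 1 and adult wild-type 3, against 4.33 to 5.69 on the adult letter pairs. Probe set 177131_s_at, higher in replicate 2 by 3.08 ± 0.53, was high on all 6 adult arrays, between 8.82 and 10.97.

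The higher and lower sets differed in how often they were detected. Of the 348 higher probe sets, 234 were called present on all 4 larval arrays, 48 on both replicate 2 arrays alone, 0 on both replicate 1 arrays alone and 8 on none. Of the 136 lower ones, 53 were present on all 4, 1 on both replicate 2 arrays alone, 17 on both replicate 1 arrays alone and 35 on none. Over all 22548 probe sets the counts were 9967 on all 4, 930 on both replicate 2 arrays alone, 257 on both replicate 1 arrays alone and 8224 on none. Within pairs, the higher set was lower in the mutant, with a median mutant minus wild-type of -0.26 (log2) in pair 2 and -0.30 in pair 1. Over all probe sets those medians were 0.01 and -0.08. The genotype and replicate differences share the same 4 arrays, so these medians are given side by side only.

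The adult arrays took no part in choosing these sets. The median level of the 348 higher probe sets was 7.80 (log2) on larval mutant 2 and 8.23 on larval wild-type 2, against 6.26 on larval mutant 1 and 6.64 on larval wild-type 1. On adult arrays it was 7.18 on mutant 1 and 7.53 on wild-type 3, the pair with bare names, and from 6.999 to 7.28 on the 4 letter-pair arrays. The mean over adult arrays lay above both larval replicate means for 107 of the 348, between them for 140 and below both for 101. For the 136 lower probe sets the adult mean lay above both for 17, between for 86 and below both for 33. Over all 22548 probe sets it lay above both for 8553 (37.9%), between for 4291 and below both for 9704 (43.0%). Sets chosen for a gap of at least 2-fold leave more room between the means, so these counts are descriptions only. The median level of the 136 lower probe sets was 6.41 and 6.26 on adult mutant 1 and wild-type 3, and from 5.53 to 5.79 on the letter-pair arrays.

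**Figure D4:**
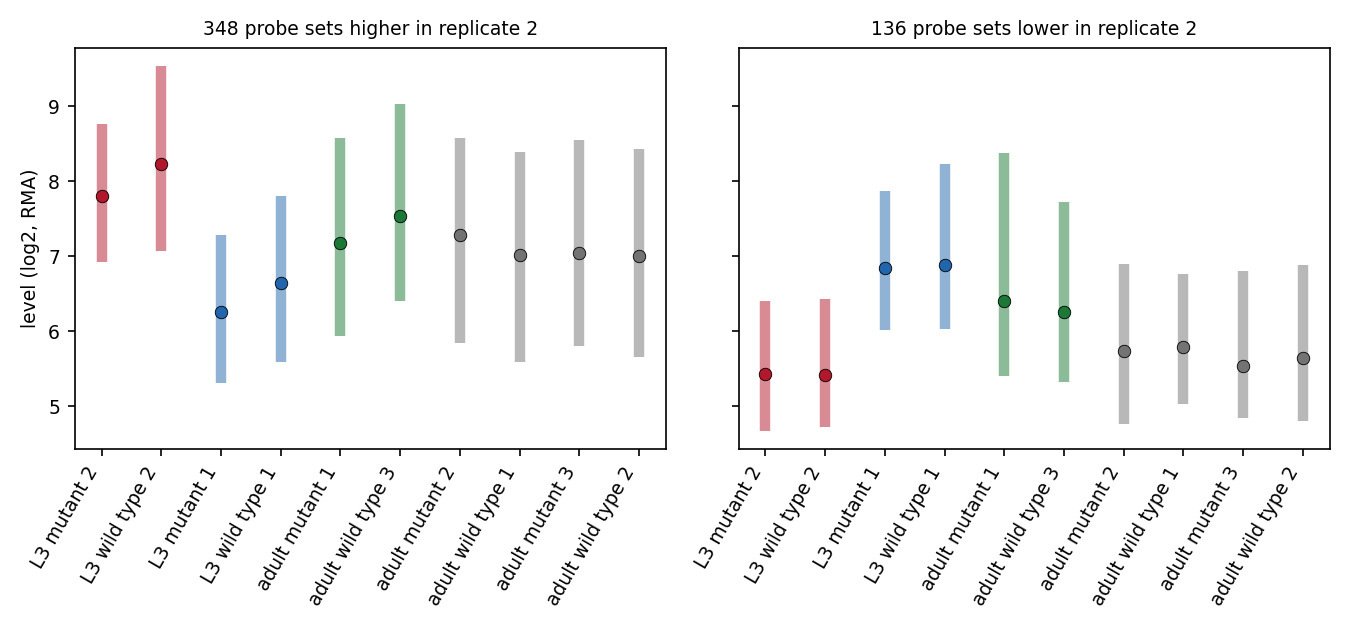
Median (point) and interquartile range (bar) of the log2 level (y axis) on all 10 arrays (x axis) for the 348 probe sets at least 2-fold higher (left) and the 136 at least 2-fold lower (right) in replicate 2 in both genotypes. Red marks larval replicate 2, blue larval replicate 1, green the adult pair with bare names and grey the adult letter pairs. In the right panel the bare-name adults, at 6.41 and 6.26, lie above the letter-pair adults.

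The bare-name adult arrays also stood apart in other ways. Their mean 3' minus 5' control signal was 1.25 on mutant 1 and 1.09 on wild-type 3, against 0.58 to 0.82 (log2) on the letter-pair arrays, with no overlap. Over all probe sets they correlated with the larval arrays at a Pearson r of 0.886 to 0.909, against 0.822 to 0.844 for the letter-pair arrays, as a description across probe sets. In adults the bare-name pair differed from the letter pairs at 2175 probe sets called higher (9.65%) and 2983 called lower (13.2%) in limma. This call rested on 1 array more than on the other: without adult mutant 1 the counts were 814 higher (3.61%) and 589 lower (2.61%). Of the 348 probe sets higher in larval replicate 2, 104 (29.9%) were called higher in the bare-name adults and 75 (21.6%) lower. Without adult mutant 1 those counts were 102 (29.3%) and 40. Of the 136 probe sets lower in larval replicate 2, 55 (40.4%) were called higher in the bare-name adults and 3 lower, and without adult mutant 1 the counts were 32 (23.5%) and 1. Both sets thus held larger shares called higher than all probe sets did, although they lie in opposite directions in larvae. The share over all probe sets depends on detection. With only the 12684 probe sets present on at least 2 larval arrays fitted, 2321 were called higher and 2737 lower. The medians of the higher and the lower set for bare-name minus letter pairs were 0.37 and 0.61 (log2), against -0.004 over all probe sets. On the scaled signals they were 0.80 and 1.10, against 0.29 over all. The scalings also moved the balance over all probe sets, to 1590 higher and 4440 lower with arrays centred on their medians and to 4287 higher and 1434 lower on the scaled signals.

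The named cuticle genes mostly stood higher in the bare-name adults, the arrays with the higher 3' minus 5' signal (1.25 and 1.09, against 0.58 to 0.82) and the closer correlation with larvae. The part of these array values in the gene differences was not tested. Of 13 collagens 6 rose and 1, col-142, fell there, with adjusted p-values under 0.05 in limma, and the median difference was 1.70 (log2). Without adult mutant 1, 11 of the 13 passed as higher and 0 as lower. Of the 5 hedgehog-related and patched-related genes 4 rose, all but grd-5, and all 4 abu and pqn genes rose, by a median of 3.07. nas-6 and mlt-8 also rose, by 1.63 and 2.45. These genes reached the report through lists made mostly on the larval arrays. In the fit of all arrays the share of collagens called higher was 46.2%, against 53.8% of all named genes. Over all 145 named genes 78 rose and 7 fell, against the 9.65% and 13.2% of all probe sets, and without adult mutant 1 those counts were 76 and 2.

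dpy-5 read 10.30 on adult mutant 1 and 12.48 on adult wild-type 3, against 9.93, 7.50, 7.90 and 6.40 on the letter-pair arrays. The letter-pair arrays were themselves widely spread for this gene, and its adult difference was 3.46 ± 0.83 (log2, SE). F44E5.5 had the largest adult difference among the named genes described here, with 11.82 and 12.10 on adult mutant 1 and wild-type 3, against 6.61 to 8.23 on the letter-pair arrays. Its difference was 4.62 ± 0.28 (log2, SE), with an adjusted p of 0.00733 in limma.

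Larval and adult differences did not run together for every gene. pud-2.1, the highest in larval replicate 2, was lower in the bare-name adults, with a difference of -1.46 ± 0.29 (log2, SE) and an adjusted p of 0.0177 in limma and 0.015 without adult mutant 1. grd-5 lay at -0.71 ± 0.56 in adults and did not pass (adjusted p of 0.417 in limma). Adult mutant 1 read 7.89 and adult wild-type 3 read 10.66, and without adult mutant 1 the grd-5 difference was 0.64. Some genes that were lower in larval replicate 2 were higher in the bare-name adults: atf-8 by 2.16, C15A11.7 by 1.62 and Y41G9A.5 by 1.53, with adjusted p-values of 0.010, 0.014 and 0.0095 in limma. Without adult mutant 1 they were 0.027, 0.081 and 0.034. col-180, col-77 and col-156, with larval differences above 2, did not pass in adults (adjusted p-values of 0.386, 0.261 and 0.389), but passed without adult mutant 1, at 0.0012, 0.032 and 0.0079. col-54 passed in neither fit, with 0.146 and 0.066. For col-180 the bare-name arrays themselves were far apart, at 7.32 on adult mutant 1 and 11.02 on adult wild-type 3. Over all probe sets the Pearson r between the larval and the adult difference was -0.12 (n = 22548, a description across probe sets).

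**Figure D5:**
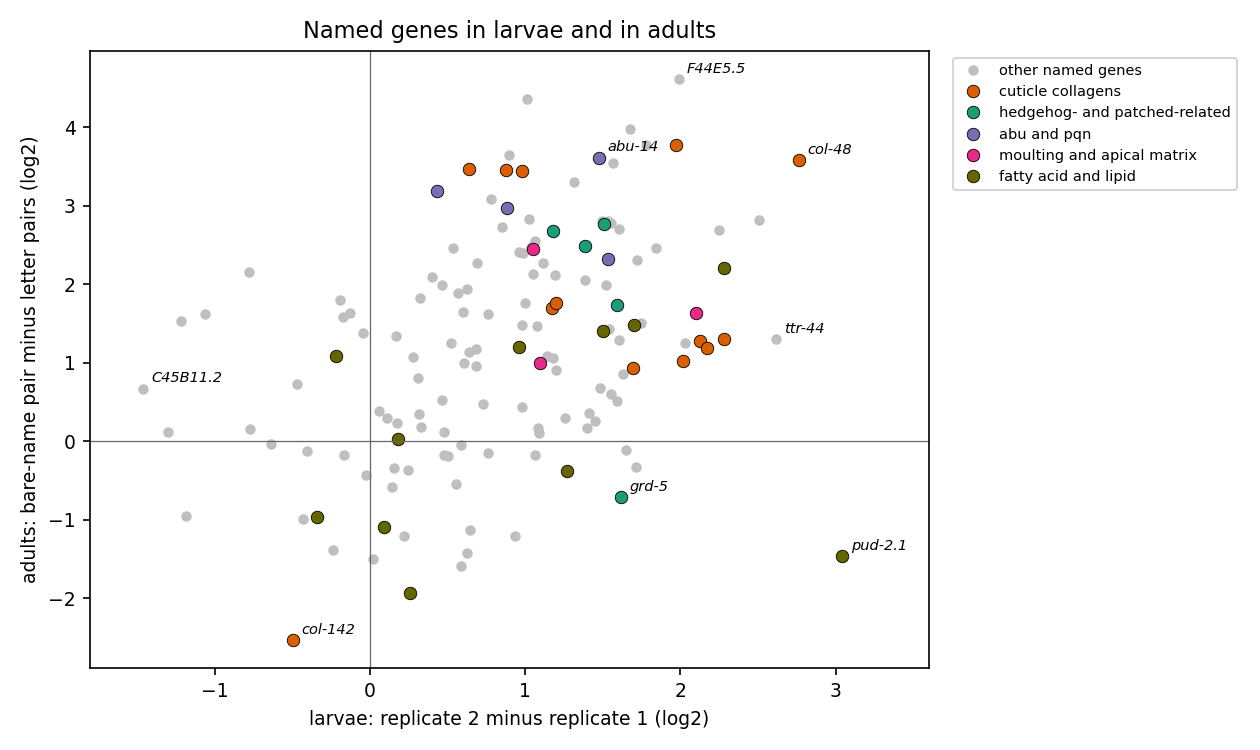
Replicate 2 minus replicate 1 in larvae (x axis, log2) and bare-name pair minus letter pairs in adults (y axis, log2) for the 145 named genes, coloured by list. Most cuticle genes lie at the upper right, F44E5.5 is the highest in adults at 4.62, pud-2.1 lies lower right at 3.04 and -1.46, and col-142 lower left.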

How the data were processed

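Total RNA of whole worms was labelled with a one-cycle 3' IVT protocol and hybridised to one-colour Affymetrix arrays, per the labels. Main results use the deposited log2 values, for which the submitters' processing notes name RMA without a version. Per the file headers, the authors' comparison tables give scaled signals with detection calls for single arrays and change calls for pairs of arrays. Another 34 columns of signals, detection calls or p-values were not used here. Genome build and probe annotation are not given in the sources used here.

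limma 3.58.1 (R 4.3.3) fitted genotype within stage and the array pair to all 10 arrays without a filter (3 residual and 3.66 prior degrees of freedom). Pairs come from shared naming styles in the descriptions. Pearson r over probe sets was 0.974 within larval pair 2 and 0.992 within pair 1, against 0.957 to 0.969 between the pairs. Benjamini-Hochberg adjustment of the two-sided p-values ran over all 22548 probe sets (threshold 0.05). p-values measure only the spread between these arrays, and the number of arrays limits the precision. The scripts were tested on simulated data. Tables were read with Python 3.11.15.

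Of 196 listed probe sets, 152 matched 1 gene of RefSeq's WBcel235 table, 4 several, 37 none and 3 a number not in that table. Each gene was read from its brightest probe set. The rule named nep-1, the 12 largest differences each way with equal sign in both genotypes and at least 2 present calls, up to 6 members of each list (any member of cuticle, moulting and hedgehog-related lists), and up to 2 unnamed probe sets each way. Of 23 lists, 15 had a named member. Members, lists and tests were chosen with earlier results of these data known.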

Additional observations from a re-analysis of the deposited data

How the results depend on the processing

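The count for the replicate difference was 0 in limma. It was 2 after quantile normalisation, 2 with probe sets present on at least 2 larval arrays, 5 with an intensity trend and robust estimation, 2 on the scaled signals (log2 after adding 16) and 1164 without the bare-name adult pair, and it ranged from 0 to 0 when each larval array was left out. The 484 probe sets past 2-fold in both genotypes became 1806 on the scaled signals, 798 on those with present calls on at least 2 larval arrays (chosen after seeing the data), 2422 at a log2 difference of 0.58 and 24 at 2. Leaving out single larval arrays could give no such count, since it needs both arrays of both genotypes. The adult count of 5158 was 2968 with an absolute log2 difference of at least 1, and ranged from 1403 without adult mutant 1 to 7273 without adult wild-type 3. nep-1 in mutant minus wild-type ranged from -4.31 to -2.99 when each array was left out. With no replicate block, that is without the pair terms, it was -3.65 with an adjusted p of 0.603 in limma, so the paired fit changed no call.

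Of 61 named genes, 7 reversed under another scaling. After quantile normalisation cyp-35C1 lay at -0.083, gst-13 at -0.16, gst-6 at -0.044 and ugt-63 at -0.067 (log2). On the scaled signals gst-13 lay at -0.42, gst-20 at -0.048, nep-1 at -0.25, ugt-63 at -0.31 and vha-18 at -0.32. Leaving out 1 array turned 5: col-142 ranged from -1.27 to 0.27, gst-13 ranged from -0.0050 to 0.12, ketn-1 from -0.10 to 1.14, nep-1 from -0.35 to 0.98 and ugt-63 from -0.0023 to 0.038. Leaving out 1 array, which removes that genotype from the difference, moved 22 genes by over 1.5 times. The cause of the changes with scaling was not tested.

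The arrays have 2 samples a side, no labelled batch and no probe annotation beyond the authors' lists, so most of the differing probe sets remain unnamed. Signal near background limits those 35 of the 136 lower ones that were called present on no larval array. Of all 22548 probe sets, 8224 were present on none.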
